A study of Mus musculus with 4 samples.

Results

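The genes described here are those for matrix metalloproteinases (MMPs), the ADAM and ADAMTS proteases, the ADAMTS-like proteins (ADAMTSL) and the tissue inhibitors of metalloproteinases (TIMPs). They were chosen by gene symbol and protein-coding biotype, and by a mean normalized count of at least 10 over the 4 libraries. The table has 84 protein-coding genes with such symbols, of which 57 reached that mean and are called members here, among 18436 genes that reached it and 48709 genes in all. RNA came from the left lung lobe of untreated C57BL/6 mice at postnatal day 1. One group, called mutant here, was RykSL/SL, homozygous for the SL allele of Ryk, a receptor for WNT ligands, and had 2 mice. The other was wild-type and also had 2 mice. The labels give neither sex nor litter, and do not state how the SL allele acts on the gene. The comparison asks how each gene's transcript level differed between these genotypes.

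MMPs are zinc-dependent enzymes that cut collagens, elastin, basement membrane and other matrix proteins, some of them secreted and some anchored in the cell membrane. ADAMs are membrane proteins, many of which release growth factors, cytokines and receptors from the cell surface, while the related ADAMTS enzymes are secreted and cut proteoglycans or trim procollagens. ADAMTSL proteins resemble the ADAMTS enzymes but lack the protease part, and TIMPs bind and block the active enzymes. In the newborn lung, where airspaces are being subdivided by new septa, such proteins take part in laying down and remodelling the matrix.

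Ryk itself had normalized counts of 2757 (lung 1) and 2203 (lung 2) in the mutant, next to 2528 and 2525 in the wild type. The library totals of normalized counts lay between 18658239 and 19987634. These totals were taken after scaling between libraries, so they do not show how deeply each was sequenced. Xist, the RNA of the inactive X chromosome, stood at 24836 in mutant lung 1 and between 7 and 23 in the other lungs, and the Y-linked Ddx3y at 56 against 2197 to 3769. By these sex-linked transcripts mutant lung 1 had the pattern of a female and the other lungs that of males. The mutant group thus held both patterns and the wild-type group only the male one. Fits without mutant lung 1 compared lungs of the male pattern alone, but held only mutant lung 2 for the mutant. Their spread came from the wild-type lungs alone, so such a fit cannot tell a trait of that lung from the genotype. The log2 difference between the wild-type lungs had an SD of 0.314 over all tested genes and 0.315 over the members, and that between the mutant lungs an SD of 0.6 and 0.591. Mutant lung 2 was the farther from the wild type. Over all tested genes its SD from wild-type lungs 1 and 2 was 0.757 and 0.744, against 0.61 and 0.575 for mutant lung 1. Of 11 lung markers, Sftpc, Scgb1a1, Nkx2-1 and Pecam1 were abundant in every library, with no value under 4126. The lowest, Foxj1, lay between 752 and 1245. The 11 genes summed to 294515 and 238842 in the mutant against 346156 and 332323 in the wild type. Both mutant lungs lay below both wild-type lungs in 5 of them, among them Ager and Col1a1, and above in 2. Of all tested genes 26.9% lay below and 25.7% above. Of the lists for other cell types, summed normalized counts were 3704 and 3668 in the mutant against 7202 and 7183 in the wild type for 8 cardiac muscle genes. They were 9433 and 3518 against 7619 and 6305 for 6 smooth muscle genes and 11920 and 22169 against 16699 and 14738 for 5 mesothelial genes. For 10 cartilage genes the sums were 916 and 632 against 662 and 812, and the defining genes Col2a1, Acan and Matn1 had means under 10.

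Between the genotypes, 9 of the 57 members passed the test, 7 higher and 2 lower in the mutant. Those that rose were Adamts15, Adamtsl2, Adamts1, Mmp8, Adam23, Adamts14 and Adamtsl4, and those that fell were Adamts7 and Adam12. The 23 ADAMTS and ADAMTSL members held 5 of the 7 increases. No TIMP, membrane-anchored MMP or germline ADAM passed. The test was limma on log2(normalized count + 1) across all 18436 genes, and a gene was called where its p, adjusted by Benjamini-Hochberg, was under 0.05. In that fit 2.39% of all genes were called, 1.47% higher and 0.917% lower, against 15.8% of the members, 12.3% higher and 3.5% lower. The median absolute log2 fold change was 0.47 over the members and 0.27 over all tested genes, and 12 members (21.1%) had an absolute value of 1 or more, against 7.64% of all tested genes. Both mutant lungs lay above both wild-type lungs in 21 members and below them in 15, where 25.7% and 26.9% of all tested genes did so. An exact permutation test of 2 lungs against 2 cannot go below a two-sided p of 0.33, so single genes rest on the spread shared across genes.

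These calls depended on the libraries. Without mutant lung 1, 18 members passed, 11 higher and 7 lower, where 12.9% of all genes passed. Of the 9 genes, 7 were again among them, and Adam23 (adjusted p = 0.0561) and Adamtsl4 (0.0553) were not. Without mutant lung 2, wild-type lung 1 or wild-type lung 2 no member passed in limma, and 28, 13 and 15 members respectively had an unadjusted p under 0.05. The direction of all 9 genes stayed the same in each of these fits, with a log2 fold change of 2.38 to 2.51 for Adamts15 and of 0.83 to 1.11 for Adamtsl4. In bulk tissue, fewer cells of a type and less RNA per cell cannot be told apart, which applies to every value below.

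**Figure D1:**
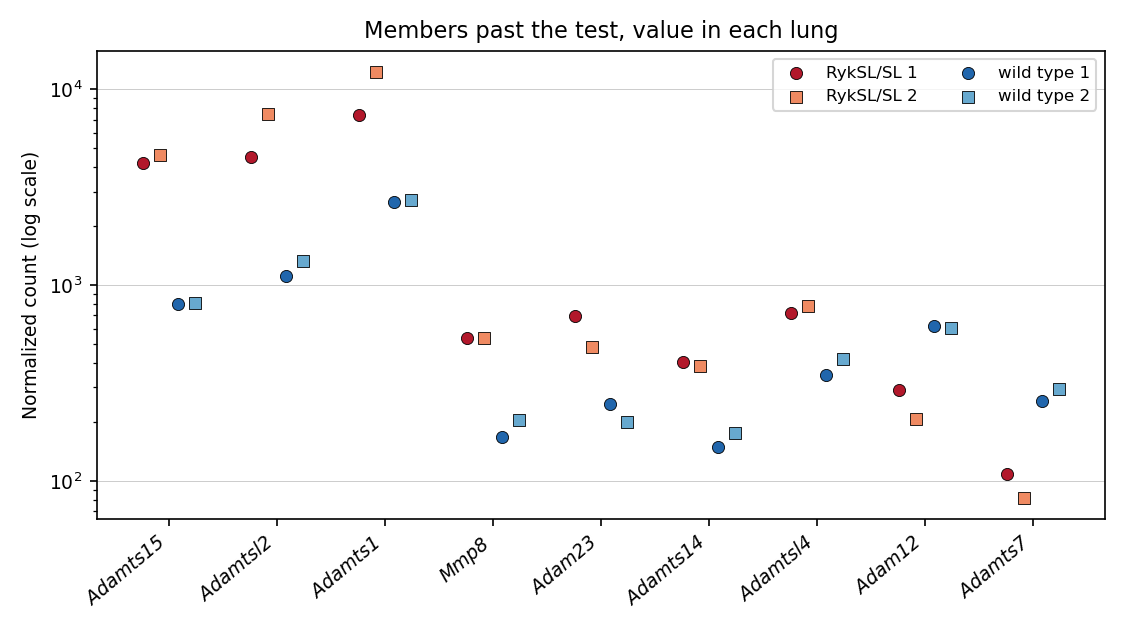
Normalized counts (log axis) of the 9 members that passed the test, with a point for each of the 2 RykSL/SL and 2 wild-type lungs. The red and orange mutant points of the first 7 genes lie above both blue wild-type points, and those of Adam12 and Adamts7 lie below them.

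**Figure D2:**
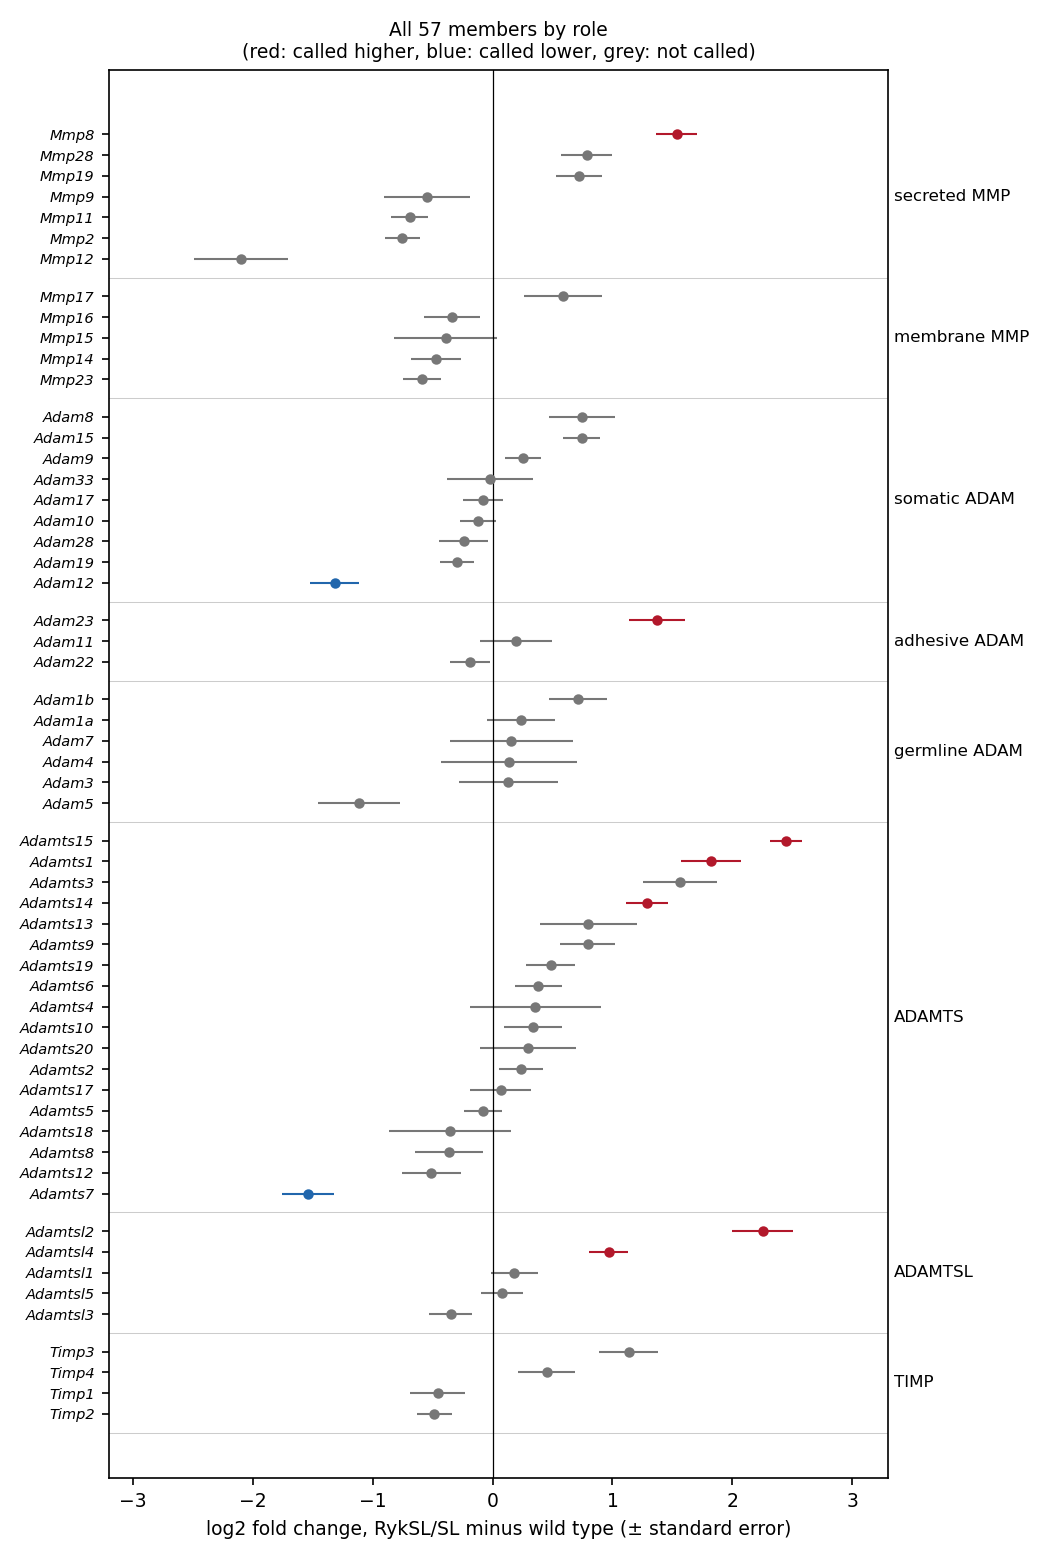
Log2 fold changes of all 57 members, mutant minus wild type, with standard errors from limma and grouped by role. The ADAMTS genes spread from -1.54 (Adamts7) to 2.45 (Adamts15), and 4 of the 5 membrane-anchored MMPs lie below 0.

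Among the ADAMTS enzymes that cut the large proteoglycans versican and aggrecan, Adamts15 and Adamts1 rose. Adamts15 (ENSMUSG00000033453, chromosome 9, positions 30899155 to 30922452, GRCm38) reached normalized counts of 4217 and 4607 in mutant lungs 1 and 2, next to 804 and 811 in wild-type lungs 1 and 2, the order used throughout. Both mutant values were more than 5 times the wild-type ones, and within each genotype the lungs were close. It had a fitted log2 difference, mutant minus wild type, of 2.45 ± 0.13 (SE; adjusted p = 0.00415), and its p was the smallest of the 57. Adamts1 (chromosome 16, positions 85793827 to 85803113) had 7392 and 12276 against 2665 and 2725, so the mutant lungs were apart from each other but both far above the wild type. Its log2 difference came to 1.82 ± 0.25 (SE; adjusted p = 0.0292).

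The other 5 versican- and aggrecan-cutting enzymes did not pass. Adamts9, which cuts versican, had 1787 and 2817 against 1315 and 1271 (log2 fold change 0.79, adjusted p = 0.144). Mutant lung 2 was the higher of the pair here too, and without mutant lung 1 Adamts9 passed (1.12, adjusted p = 0.0407). Exons of A730049H05Rik lie opposite to exons of Adamts9, and its counts were 155 and 979 against 9 and 16; how the counting treated strand is not given, so reads of the 2 genes may be mixed. Adamts4 had 46 and 155 against 70 and 62, so the mutant lungs lay on either side of the wild type. Its log2 fold change was -0.51 without mutant lung 2 and 1.22 without mutant lung 1, where it passed (adjusted p = 0.0482). Adamts5, a major aggrecanase of cartilage, had 293 and 317 against 331 and 313, with overlapping groups and a log2 fold change of -0.08. Adamts8 had 296 and 170 against 274 and 304, and Adamts20 had between 12 and 21 in the 4 lungs.

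Per kilobase of exon, the 7 enzymes of this group summed to 2022.4 and 3047.9 normalized counts per kb in the mutant lungs against 774.1 and 785.8 in the wild-type lungs. Adamts1 made up 68.9% and 76.0% of that level in the mutant against 64.9% and 65.4% in the wild type, and Adamts15 20.1% and 14.6% in the mutant. On the same per-kb scale Adamts1 ranked ninth of the 57 members in the wild type, at a mean of 508.3, and first in the mutant, at 1854.8. Adamts15 moved from a mean of 77.9 per kb to 425.7. These are sums and shares with 2 lungs per genotype and were not tested.

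The enzymes that remove the amino-terminal propeptide from fibrillar procollagens were Adamts2, Adamts3 and Adamts14. Adamts14 (chromosome 10, positions 61197112 to 61273438) rose, with 406 and 386 against 149 and 175. Its log2 difference was 1.29 ± 0.17 (SE; adjusted p = 0.0277). Its 4 values fell into 2 narrow pairs. Adamts3, which also takes part in activating the lymphatic growth factor VEGF-C, had 100 and 166 against 40 and 46, which did not pass (1.56, adjusted p = 0.0647). It passed without mutant lung 1 (1.93, adjusted p = 0.041). Adamts2, the most abundant of them per kb with 67.3% to 85.7% of the group in each lung, had 2750 and 2010 against 2010 and 1976 (0.24, adjusted p = 0.515).

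Adamts7, which cuts the cartilage oligomeric matrix protein and is known from vascular smooth muscle, fell. The gene (chromosome 9, positions 90163069 to 90208071) had 108 and 82 against 257 and 295. Its log2 difference was -1.54 ± 0.22 (SE; adjusted p = 0.031). Exons of Tbc1d2b lie opposite to it, and that gene had 1335 and 1082 against 1454 and 1665. Its closest relative Adamts12 had 345 and 222 against 368 and 423 (-0.51, adjusted p = 0.305). The smooth muscle sums given above were highest in mutant lung 1 and lowest in mutant lung 2, whereas Adamts7 was low in both; the part of that cell type in the result was not tested. Of the remaining ADAMTS genes, Adamts10, which binds fibrillin, had the highest level per kb in the wild type (599.8). It had 4905 and 7954 against 4872 and 5029 (0.34, adjusted p = 0.492), with only mutant lung 2 apart, and passed without mutant lung 1 (0.68, adjusted p = 0.041). Its relative Adamts6 had 136 and 157 against 109 and 115. Adamts13, which cuts von Willebrand factor, had 20 and 22 against 9 and 15, and Adamts17, Adamts18 and Adamts19 had log2 fold changes of 0.07, -0.36 and 0.48, none of which passed.

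Among the protease-less ADAMTSL genes, Adamtsl2 and Adamtsl4 rose and the other 3 did not pass. Adamtsl2 (chromosome 2, positions 27079379 to 27108981) encodes a protein that binds fibrillin and latent TGF-beta binding protein. It had 4529 and 7465 against 1116 and 1327, and both mutant lungs lay far above the wild type, lung 2 most. The log2 difference came to 2.26 ± 0.25 (SE; adjusted p = 0.0184). Per kb it ranked 17th of the members in the wild type, at a mean of 152.8, and rose to a mean of 750.3 in the mutant. Adamtsl4 (chromosome 3, positions 95676201 to 95687917), another fibrillin-binding protein, had 717 and 780 against 346 and 421. Its log2 difference was 0.97 ± 0.16 (SE; adjusted p = 0.0459). The groups did not overlap, but the call was close to the threshold. Of the 9 calls it alone was lost after quantile normalization (adjusted p = 0.0516). Other settings, given in the last section, removed most or all of the calls. Adamtsl1, Adamtsl3 and Adamtsl5 had log2 fold changes of 0.18, -0.35 and 0.08.

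RefSeq start sites (GRCm38.p6) were matched for 34 of the 57 members, with 38 windows of 250 bases before the start. In 2 of these 38 windows the letters TATAAA stood on the sense strand, beginning 36 to 24 bases before the start, and these belonged to Adamts1 (32 bases before) and Adamtsl2 (30 bases before), both among the genes that rose. Of all 32851 windows 1.8% held it there. The 2 windows that held TATAAA there are shown, with these letters in capitals. Of the other genes that rose, Adamts14, Adamtsl4, Adam23 and Mmp8 had windows without TATAAA, and Adamts15 had no window. The genes that fell, Adamts7 and Adam12, had no window either, so genes that rose and fell cannot be compared here.
Adamts1 (chr16:85803114-85803363, minus strand): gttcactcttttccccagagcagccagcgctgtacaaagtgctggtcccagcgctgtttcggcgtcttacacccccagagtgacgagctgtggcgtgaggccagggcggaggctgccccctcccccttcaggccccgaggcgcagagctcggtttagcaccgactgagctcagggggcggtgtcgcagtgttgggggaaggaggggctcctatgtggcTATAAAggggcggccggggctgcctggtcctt
Adamtsl2 (chr2:27079129-27079378, plus strand): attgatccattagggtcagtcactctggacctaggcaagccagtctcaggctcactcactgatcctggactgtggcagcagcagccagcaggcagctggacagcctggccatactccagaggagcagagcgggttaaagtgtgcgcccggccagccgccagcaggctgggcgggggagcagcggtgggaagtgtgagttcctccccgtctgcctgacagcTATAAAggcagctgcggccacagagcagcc
Both windows were rich in G and C (65.6% and 62.8%), close to the median of 63.0% over the member windows and above the 52.4% over all windows. Anywhere in the window and on either strand, TATAAA was found in 5.26% of member windows and 12.37% of all windows. The palindromic glucocorticoid response element, searched on both strands, was in 0 of the 38 member windows and in 0.39% of all windows. Such a match is only a run of letters in a short window.

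Of the members that lie next to each other in the genome, 3 pairs include a gene that rose. Adamts1 and Adamts5 lie 55.1 kb apart on chromosome 16 with no coding gene between them, and had log2 fold changes of 1.82 and -0.08. Adamts15 and Adamts8 lie 20.1 kb apart on chromosome 9, in opposite orientation and again with no coding gene between them, and had 2.45 and -0.36. Adamts13 and Adamtsl2 lie 69.8 kb apart on chromosome 2, with 3 coding genes between them, at 0.80 and 2.26. Of the adjacent pairs with no called gene, Adam1b and Adam1a had 0.71 and 0.24, Adam7 and Adam28 had 0.16 and -0.24, and Adam5, at -1.11, lies beside Adam3 (0.13). The differences between neighbours were not tested.

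**Figure D3:**
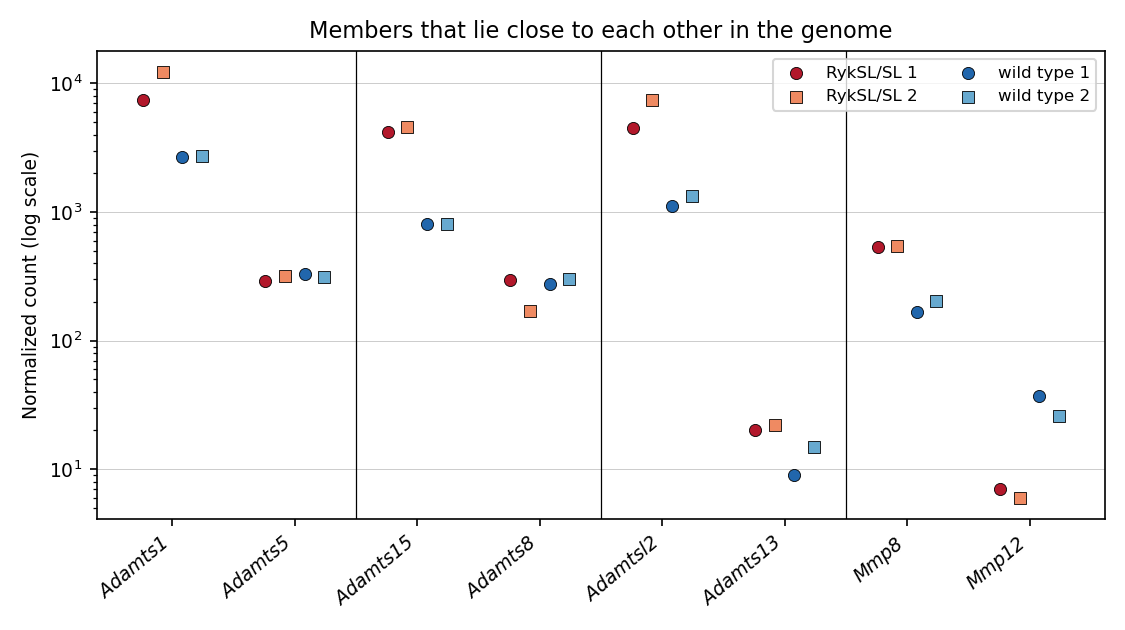
Normalized counts (log axis) in each lung for 4 sets of members that share a stretch of chromosome, separated by vertical lines. In the first pair the mutant points of Adamts1 lie at 7392 and 12276 while all 4 points of Adamts5 lie between 293 and 331.

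Of the 16 secreted MMP genes, 7 were members, and Mmp8 was the only member to pass. Mmp8, the collagenase stored in neutrophil granules (chromosome 9, positions 7558429 to 7568486), had 538 and 540 against 168 and 204. The mutant lungs were nearly equal and both more than 2 times the wild type. The log2 difference came to 1.54 ± 0.17 (SE; adjusted p = 0.018). The 10 neutrophil markers summed to 6064 and 9263 in the mutant against 6929 and 6762 in the wild type. Most of that came from S100a8 (2116 and 3711 against 2346 and 2258) and S100a9 (2724 and 4445 against 3270 and 3209). In 0 of the 10 were both mutant lungs above both wild-type lungs, and in 1, Csf3r (317 and 314 against 437 and 405), they were below. The granule genes Ngp (348 and 207 against 256 and 295), Ltf (291 and 168 against 264 and 295) and Camp (118 and 260 against 201 and 183) overlapped between the genotypes. The primary granule genes Elane and Mpo had means under 10, and the part of neutrophils in the Mmp8 values was not tested. Mmp9, the gelatinase that neutrophils also store, had 139 and 70 against 127 and 165 (-0.55, adjusted p = 0.439).

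Mmp12, the macrophage elastase, had 7 and 6 normalized counts against 37 and 26. Both mutant values were far below the wild type, but all were small, and the gene did not pass (-2.10, standard error 0.39, adjusted p = 0.0594). The 10 macrophage markers summed to 19175 and 19202 against 36376 and 26931, most of it from Lyz2 (16266 and 16108 against 32500 and 23395). In 9 of them both mutant lungs lay below both wild-type lungs, where 26.9% of all tested genes did so. Siglecf, with small counts of 3 and 2 against 36 and 30, was lowest (-3.29, adjusted p = 0.0266) and the only marker of this list to pass. Itgax had 28 and 9 against 116 and 118 (-2.79, adjusted p = 0.0556). The others that lay below had log2 fold changes from -0.85 (Marco) to -0.33 (Mrc1). Chil3 went the other way, with 460 and 801 against 197 and 313. The part of macrophages in the Mmp12 values was not tested. Mmp8 and Mmp12 lie 188.9 kb apart in a cluster of 10 Mmp genes on chromosome 9 (positions 7272514 to 7699585), and the other 8 of that cluster were under the mean of 10. RefSeq gives Mmp12 a start site inside the gene, and the window before it is shown because it is the only Mmp window of the 38 that held TGANTCA, the pattern bound by AP-1 factors (in capitals). TGANTCA was in 6.75% of all windows and in 5.26% of the member windows, the other being Adam19. The window before Mmp8, shown for comparison, held none of the 3 patterns.
Mmp12 (chr9:7347124-7347373, plus strand): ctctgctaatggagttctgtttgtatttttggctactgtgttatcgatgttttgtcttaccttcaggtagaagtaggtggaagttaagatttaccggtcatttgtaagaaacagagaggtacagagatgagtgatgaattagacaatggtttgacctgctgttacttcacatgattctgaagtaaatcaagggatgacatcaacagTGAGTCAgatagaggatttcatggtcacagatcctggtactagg
Mmp8 (chr9:7558179-7558428, plus strand): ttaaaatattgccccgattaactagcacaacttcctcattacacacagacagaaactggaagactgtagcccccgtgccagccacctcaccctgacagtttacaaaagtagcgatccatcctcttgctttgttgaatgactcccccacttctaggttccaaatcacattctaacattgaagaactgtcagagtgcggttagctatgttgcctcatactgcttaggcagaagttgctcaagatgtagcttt
Unlike the GC-rich windows of Adamts1 and Adamtsl2, these had 39.6% and 44.8% G and C.

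Mmp2, the gelatinase of mesenchymal cells, was the most abundant MMP per kb, at a mean of 955.8 normalized counts per kb in the wild type and 568.1 in the mutant. Its normalized counts were 1760 and 2070 against 3221 and 3223 (-0.76, adjusted p = 0.0632). The groups were well apart, yet it did not pass; it passed without mutant lung 1 (-0.64, adjusted p = 0.041) and after quantile normalization (-0.87, adjusted p = 0.0475). Mmp11, or stromelysin 3, had 1202 and 981 against 1786 and 1725 (-0.69, adjusted p = 0.0878) and passed without mutant lung 1 (-0.84, adjusted p = 0.0407). Mmp19, which cuts basement membrane proteins, and Mmp28, an MMP of epithelia, had the opposite sign. Mmp19 had 499 and 449 against 329 and 249 (0.72, adjusted p = 0.126), and Mmp28 had 168 and 162 against 85 and 107 (0.78, adjusted p = 0.129). Of the 50-base sequences of Mmp19 transcripts, 24.7% occur in transcripts of other genes, among them the overlapping Tmem198b (357 and 327 against 235 and 225).

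None of the 5 membrane-anchored MMP members passed, and 4 of them had a negative log2 fold change. Mmp14, which activates the Mmp2 proenzyme at the cell surface together with Timp2, had 3072 and 2061 against 3447 and 3538 (-0.47, adjusted p = 0.28). Mutant lung 2 was far lower than lung 1, and without lung 1 the gene passed (-0.76, adjusted p = 0.0407). Mmp15 had 1931 and 728 against 1445 and 1676, so the mutant lungs stood on opposite sides of the wild type. Its log2 fold change of -0.39 became 0.31 without mutant lung 2, and it passed at -1.09 without mutant lung 1 (adjusted p = 0.0449). Mmp23 had 204 and 212 against 318 and 308 (-0.59, adjusted p = 0.131). Mmp16 had 59 and 63 against 83 and 72, and Mmp17, held by a lipid anchor, 25 and 27 against 18 and 16.

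Of the 9 ADAM proteases of somatic tissues, 1 passed. Adam12, or meltrin alpha, a protease of mesenchymal and muscle precursor cells (chromosome 7, positions 133883199 to 134232146), fell, with 290 and 206 against 618 and 603. Its log2 difference was -1.32 ± 0.20 (SE; adjusted p = 0.0362). The wild-type lungs were close together and both mutant lungs were below 300. The most abundant sheddase was Adam10, which releases the extracellular parts of NOTCH and cadherins, at 4305 and 3683 against 4415 and 4256 (-0.12, adjusted p = 0.694). Adam17, which releases TNF and ligands of the EGF receptor, had 1918 and 1470 against 1756 and 1795 (-0.08, adjusted p = 0.83). The standard errors of the 2 genes were 0.15 and 0.17, and at a like standard error Mmp2, at -0.76, did not pass either.

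Adam15, present on endothelium and epithelium, had 1823 and 1678 against 950 and 1149, without overlap, and did not pass (0.74, adjusted p = 0.0763). Adam8, a leukocyte ADAM, had 284 and 495 against 227 and 219 (0.75, adjusted p = 0.217) and passed without mutant lung 1 (1.15, adjusted p = 0.0407). Adam9 had 2726 and 2345 against 2214 and 2028, and Adam19, or meltrin beta, 1172 and 1023 against 1326 and 1365. Adam28 had a log2 fold change of -0.24, and Adam33 of -0.02, with 121 and 258 against 176 and 183.

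Adam11, Adam22 and Adam23 lack the catalytic residues and act as adhesion proteins, best known at synapses, where they bind LGI proteins. Adam23 (chromosome 1, positions 63445891 to 63596276) rose, with 697 and 481 against 248 and 201. Its log2 difference was 1.37 ± 0.23 (SE; adjusted p = 0.0452). Mutant lung 1 was the higher, in contrast to Adamts1 and Adamtsl2. Adam22 had 235 and 216 against 265 and 248 (-0.19, adjusted p = 0.579), and Adam11 had 48 and 72 against 47 and 56.

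The ADAM genes known mainly from testis and sperm had 6 members of 21 genes, and none passed. Adam5 had 27 and 19 against 60 and 42 (-1.11, adjusted p = 0.16), and Adam1b had 75 and 89 against 51 and 48 (0.71, adjusted p = 0.188). Adam1a and Adam1b share 77.8% and 32.4% of their 50-base sequences with other genes, in part with each other, so their values are uncertain. The 5 testis markers summed to 16 and 21 against 33 and 33. Adam3, at a mean of 10.5, was the member just above the limit of 10, and Mmp25, at 9.25, the gene just below it. Of the 27 genes under the limit, 9 were listed at 0 in all 4 libraries, among them Mmp7 and Mmp10, and 18 had a mean under 1. The collagenase gene Mmp13 had 2 and 2 against 12 and 6.

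All 4 TIMP genes were members and none passed. In each the 2 genotypes did not overlap, the mutant above in Timp3 and Timp4 and below in Timp1 and Timp2. Of all tested genes, 25.7% had both mutant lungs above and 26.9% had both below, so such a separation was common. Timp3 (chromosome 10, positions 86300372 to 86349506), the inhibitor that binds to the matrix and blocks several ADAM and ADAMTS enzymes besides MMPs, had 15680 and 9807 against 5588 and 5708. Both mutant lungs were higher, and they were also far apart from each other. The log2 difference came to 1.13 ± 0.24 (SE; adjusted p = 0.0801), and it passed without mutant lung 1 (0.80, adjusted p = 0.0407). The gene lies within Syn3, whose exons on the opposite strand overlap it and which had 42 and 40 against 18 and 14. Timp2, which also helps to activate Mmp2, had 2947 and 2520 against 3819 and 3822 (-0.49, adjusted p = 0.156) and passed without mutant lung 1 (-0.60, adjusted p = 0.041). The X-linked Timp1 had 120 and 117 against 193 and 138 (-0.46, adjusted p = 0.327), and Timp4 had 112 and 87 against 73 and 71 (0.45, adjusted p = 0.344).

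The makeup of the TIMP transcripts was unlike between the genotypes. Per kb of exon, Timp3 made up 67.9% and 60.3% of the summed TIMP level in the mutant lungs against 36.2% and 37.9% in the wild-type lungs. Timp2 made up 26.7% and 32.4% against 51.7% and 53.0%. In the wild type Timp2 was the most abundant of all 57 members per kb (980.6), and in the mutant it ranked sixth (701.6). The summed TIMP level was 2835.9 and 1997.5 per kb in the mutant against 1896.1 and 1849.3 in the wild type, so in mutant lung 2 it was close to the wild type. These shares were not tested.

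**Figure D4:**
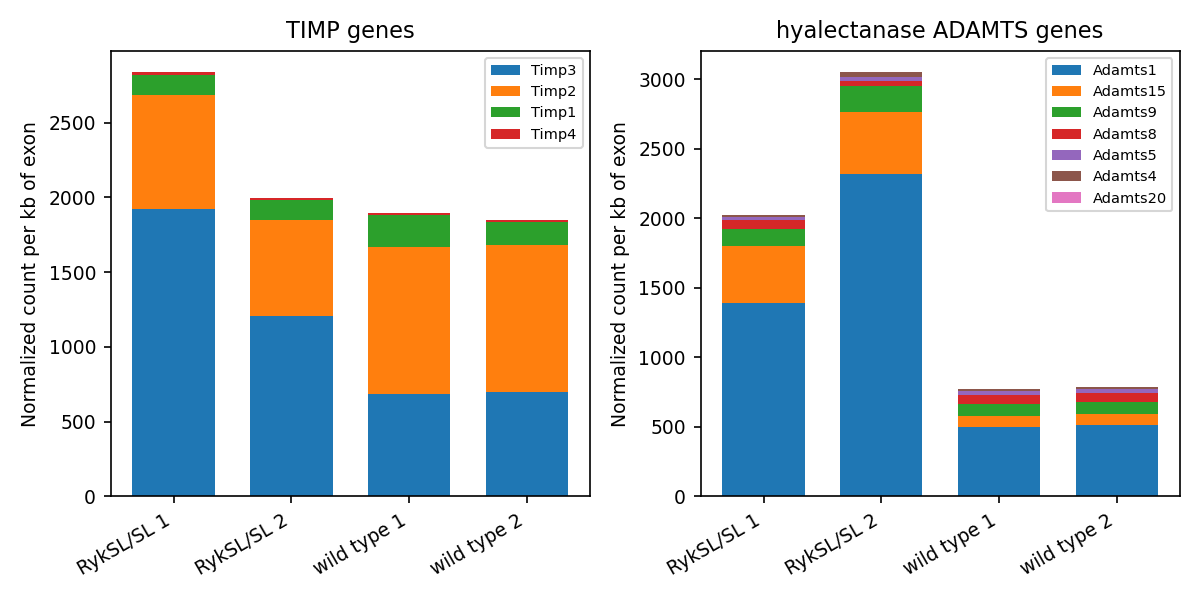
Normalized counts per kb of exon, stacked by gene, for the TIMP genes and for the versican- and aggrecan-cutting ADAMTS genes in each lung. Timp3 fills 67.9% and 60.3% of the mutant TIMP bars against 36.2% and 37.9% of the wild-type ones, and the mutant ADAMTS bars reach 2022.4 and 3047.9 against 774.1 and 785.8.

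The mutant lungs were farther apart than the wild-type lungs over the whole table as well as over the members. A log2 difference of at least 0.5 separated the mutant lungs in 20 members (35.1%, against 30.5% of all tested genes) and the wild-type lungs in 4 (7.02%, against 8.1%). Both mutant lungs lay on the same side of the wild-type mean in 46 of the 57 members (80.7%, against 66.6%). Mutant lung 1 was the higher of the 2 in 29 members (50.9%, against 50.8%). The median difference from the wild-type mean was 0.06 in mutant lung 1 and 0.15 in mutant lung 2 over the members. For the 18 ADAMTS genes it was 0.28 and 0.60, and for the 5 membrane-anchored MMPs -0.18 and -0.56.

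**Figure D5:**
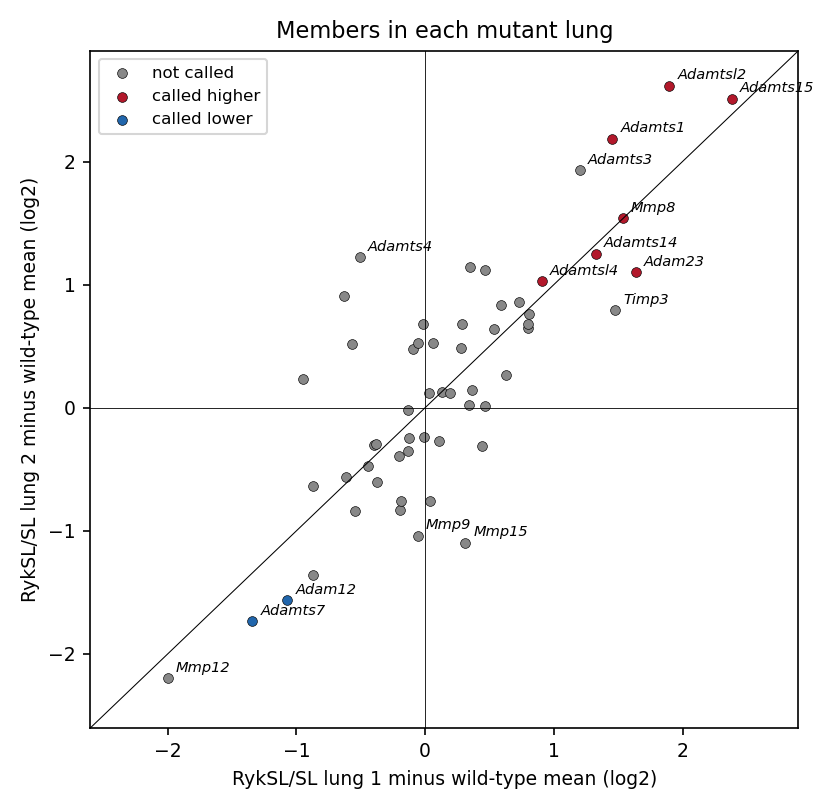
Log2 difference of each member from the wild-type mean in RykSL/SL lung 1 (x axis) and lung 2 (y axis), a point for each of the 57 members and a line of equal values. The 9 called members lie on the same side of 0 in both lungs, while Mmp15 and Adamts4 lie on opposite sides of 0 in the 2 lungs.

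Other genes of matrix turnover were followed in a list of 113 genes chosen by function, of which 94 were tested, and 2 rose and 4 fell. That is 6.4% called, 2.1% higher and 4.3% lower, against 2.39% of all tested genes, 1.47% higher and 0.917% lower. The median log2 fold change was -0.06, against -0.02 over all tested genes. Of 21 protease inhibitors outside the TIMP family, Serpina3n, an acute-phase serine protease inhibitor, rose from 116 and 86 to 943 and 1002 (3.27, adjusted p = 0.00439), and the cell surface MMP inhibitor Reck did not pass (1102 and 699 against 699 and 761, adjusted p = 0.568). Of 22 matrix proteases outside these families 2 fell. Htra1, a secreted serine protease, had 215 and 178 against 470 and 481 (-1.28, adjusted p = 0.0277), and Prss35 had 210 and 155 against 1011 and 965 (-2.45, adjusted p = 0.00885). Ctsl had the opposite sign, with 5556 and 6038 against 3595 and 3324 (0.74, adjusted p = 0.0629), and did not pass. Of 18 activators and partners of these enzymes, Pcolce, which speeds the removal of the carboxy-terminal procollagen propeptide, fell from 1095 and 1028 to 616 and 577 (-0.83, adjusted p = 0.0446).

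None of 10 substrates of the ADAMTS enzymes passed. Versican, encoded by Vcan, had 888 and 637 against 1993 and 1410 (-1.16, adjusted p = 0.0737), and the proteoglycan gene Cspg4 had 509 and 445 against 238 and 279 (0.88, adjusted p = 0.0639). Of 23 ligands and receptors that ADAM10 or ADAM17 release from cells, Il6ra rose from 658 and 739 to 2555 and 2817 (1.94, adjusted p = 0.00746). The adhesion receptor gene Vcam1 fell from 1837 and 1534 to 727 and 452 (-1.55, adjusted p = 0.0394). The receptor kinase genes Mertk (0.81, adjusted p = 0.0563) and Axl (0.85, adjusted p = 0.0598) had higher values in both mutant lungs and did not pass. Nrg1 had 156 and 243 against 87 and 78 (1.23, adjusted p = 0.0811) and did not pass either. Without mutant lung 2 or either wild-type lung all calls among the 94 genes were lost. A fit that leaves out a lung keeps only 1 lung of that genotype.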

How the data were processed

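The deposited table holds the authors' normalized counts per gene, rounded to whole numbers, a score here and not raw counts. Per the submitters' processing notes the tools were FastQC, STAR 2.4.0a, featureCounts 1.5.1 and DESeq2 1.14.1, with the mm10 build; the strand setting of the counting is not stated there. Raw counts were not used, so no count model was fitted. Genes with a mean of at least 10 were tested as log2(value + 1) in limma 3.58.1 (R 4.3.3; empirical Bayes with a mean-dependent trend), 2 mutant against 2 wild-type lungs, with Benjamini-Hochberg adjustment over all 18436 genes; fold changes are on that log2 scale and understate low genes. The labels do not say that the lungs came from separate litters, so p-values measure only the spread between these samples.

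Named by rule were every member called, all TIMPs, a fixed set of well-known enzymes, and the extremes and highest mean of each role class. The rule added up to 10 further members with the smallest p and those next to the mean of 10. Of the listed genes it took those called and the 6 others with the smallest p, and Reck is named outside it. Other members are named to complete their class, chosen after their values were seen. The members and lists were chosen with earlier results of these data known. Per-kb levels divide by the exon length in GENCODE M21. ADAM classes follow general knowledge, since no protein sequences were used here. Alternatives were pseudocounts of 0.5 and 10, no filter, a mean of at least 50, quantile normalization, trimmed-mean rescaling, no trend, a replicate block and leaving out each lung.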

Additional observations from a re-analysis of the deposited data

How the results depend on the processing

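The 9 calls among the members were the same genes with pseudocounts of 0.5 and 10, with a mean of at least 50 (48 members tested) and with trimmed-mean rescaling. Quantile normalization kept 8 of them. With no filter on low values, limma called 0 members higher and 0 lower (23 at an unadjusted p under 0.05), 0 and 0 of the 94 listed genes (34) and 0 and 0 of all genes (4876). With no trend it called 1 member higher (Adamts15, adjusted p = 0.0406) and 0 lower (24 at an unadjusted p under 0.05), 2 listed genes higher and 1 lower, and 46 genes higher and 26 lower over the whole table. The cause was not tested. Leaving out each lung gave 0 to 11 members higher and 0 to 7 lower, 0 to 9 and 0 to 16 listed genes, and 0 to 1199 and 0 to 1186 of all genes. At 0 calls over all genes, 5249, 917 and 1133 genes had an unadjusted p under 0.05 without mutant lung 2, wild-type lung 1 and wild-type lung 2. The lone remaining lung of a genotype is assumed to vary like the other group.

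No called member changed direction. Among the others, quantile normalization turned Adamts17 to -0.03 and Adam33 to 0.06. Leaving out lungs turned the log2 fold change of 12 genes: Adamts10 ranged from -0.01 to 0.68, Adamts8 from -0.76 to 0.04, Adamts18 from -0.95 to 0.23, Adamts4 from -0.51 to 1.22, Adamts17 from -0.31 to 0.44, Adam11 from -0.09 to 0.48, Adam1a from -0.05 to 0.53, Adam7 from -0.53 to 0.84, Adam4 from -0.63 to 0.90, Mmp15 from -1.09 to 0.31, Adam17 from -0.27 to 0.11 and Adam33 from -0.56 to 0.52.

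Whether samples with the same number share more than the number is not known. Their deviations from the group means had a correlation of -0.058 over 18436 genes (2 pairs). With 2 lungs per group these deviations mirror each other, so the pairs are not independent. The correlation cannot show whether same-numbered lungs share a litter or a batch. With the replicate block 9 members were higher and 3 lower, adding Adamts3, Mmp12 and Timp3, with 4 and 7 listed genes and 437 and 329 of all genes.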
